A study of Mus musculus with 6 samples.

Results

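Complex I (NADH:ubiquinone oxidoreductase) is the entry point of electrons from NADH into the mitochondrial respiratory chain, and it pumps protons across the inner membrane as it passes them to ubiquinone. Its core subunits carry the flavin, the iron-sulphur clusters and the proton channels. The accessory subunits surround and stabilise that core, and the assembly factors help to build it without remaining in the finished enzyme. Tubule cells of the kidney, above all those of the proximal tubule, are rich in mitochondria and depend on oxidative phosphorylation for the reabsorption of solutes.

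The genes described here were 40 nuclear genes whose names begin with *Nduf*. They were chosen by name as subunits or assembly factors of complex I, and all 40 were found among the 23276 gene symbols of the deposited table. By class they were 6 core subunits, 30 accessory subunits and 4 assembly factors. Where a gene had several transcript rows, the row with the highest mean level was kept.

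Strand-specific total RNA-Seq had been performed on whole kidneys of *Mus musculus* at post-natal day 22. The *Pkd1* F/RC SKO group held 3 kidneys of the genotype KspCre with *Pkd1* F/RC. The *Pkd1* F/RC DKO group held 3 kidneys with the same alleles and, in addition, floxed copies of the microRNA cluster miR-17∼92 on both chromosomes (miR17∼92 F/F). All 6 kidneys thus carried Cre under the tubule-specific Ksp (*Cdh16*) promoter, a floxed *Pkd1* allele and the hypomorphic RC allele of *Pkd1*, so no kidney was wild type and Cre acted in tubule cells only.

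The values used were the authors' mean log2 CPM (read counts scaled by library size, on a log2 scale) of each transcript over the 6 libraries together. They held no value for a single kidney or genotype. Spread between kidneys could therefore not be given, no test was made, and the SKO and DKO kidneys were not compared here. The table's columns for the authors' own comparison of the genotypes were left aside. The depth of each library is unknown. In whole kidney, fewer cells of a type and less RNA per cell cannot be told apart. Levels of the complex I genes and their classes were compared after division by transcript length (log2 CPM per kb). Where CPM or log2 CPM not divided by length are set side by side, as for the markers and the shares of all genes, longer transcripts gather more reads at the same abundance.

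The tissue label was checked against marker genes. All 7 tubule markers were high, from 77.7 CPM for the collecting duct water channel *Aqp2* to 1030 CPM for the proximal tubule phosphate transporter *Slc34a1*. The promoter source *Cdh16* was at 480 CPM. Podocyte (*Nphs1*, 13.0 CPM), endothelial (*Kdr*, 27.0 CPM, and *Pecam1*, 52.7 CPM) and leukocyte transcripts (*Emr1*, 4.49 CPM, and *Ptprc*, 8.20 CPM) were present at lower levels. The 4 genes of muscle, brain and islet, *Ckm*, *Myh6*, *Gfap* and *Ins2*, were all below 0.2 CPM.

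Complex I transcripts were abundant in these kidneys. The median member was at 5.57 log2 CPM (47.4 CPM), a level above 92.3% of all gene symbols. All 40 members were at 1 CPM or more, against 55.9% of all symbols, and 39 of them (97.5%) were at 10 CPM or more, against 32.2%. The exception at the higher limit was the assembly factor *Ndufaf3* at 5.20 CPM. Per kb of transcript the members' median was 5.67 log2 CPM, at the 97.6th percentile, and the median of all 20167 genes with a length was 0.59. The members together made up 2068 CPM.

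**Figure D1:**
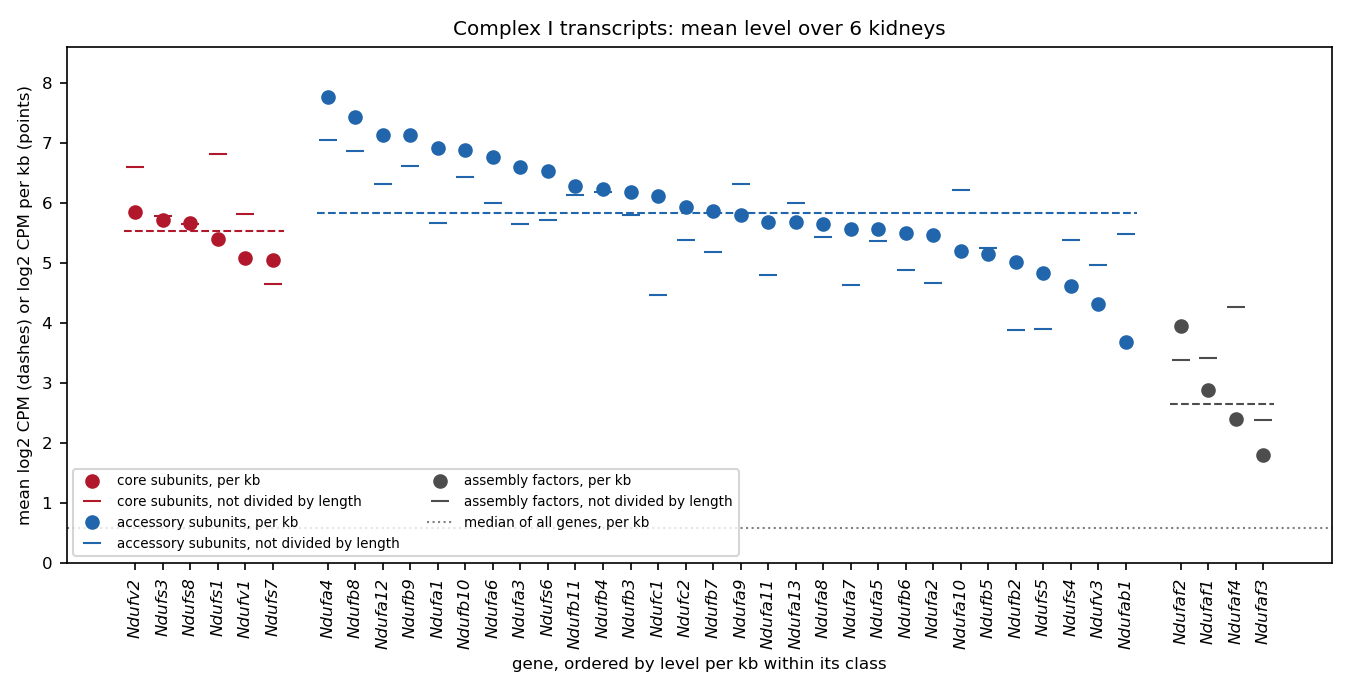
Mean level of the 40 complex I genes over the 6 kidneys, by class; points give log2 CPM per kb of transcript, short dashes log2 CPM without division by length, dashed lines the class medians per kb and the dotted line the median of all genes per kb. The 6 core subunits lay between 5.05 and 5.84, the accessory subunits between 3.69 and 7.76, and the 4 assembly factors between 1.81 and 3.95 log2 CPM per kb.

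The 6 core subunits were near each other in level per kb. Their values ran from 5.05 to 5.84 log2 CPM per kb, with a median of 5.54 and an SD among the genes of 0.34. *Ndufv2*, which holds an iron-sulphur cluster beside the flavin site, was the highest at 5.84 log2 CPM per kb (97.3 CPM over 1697 nt). *Ndufs3*, a subunit of the ubiquinone-reducing Q module without a cluster of its own, followed at 5.72 log2 CPM per kb (55.1 CPM over 1046 nt). *Ndufs8*, which carries a pair of 4Fe-4S clusters, was at 5.67 log2 CPM per kb (50.1 CPM over 983 nt). A shorter *Ndufs8* mRNA that was not kept, at 47.9 CPM over 780 nt, was at 5.94 log2 CPM per kb, above *Ndufv2*.

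*Ndufs1*, the largest core subunit and the carrier of several clusters of the electron path, had the highest level of the 6 before division by length, 113 CPM. Its long transcript of 2661 nt, with 19 exons and a coding length for 727 residues, placed it below those 3 genes per kb, at 5.41 log2 CPM. *Ndufv1*, which binds NADH and flavin mononucleotide, was at 5.08 log2 CPM per kb (56.3 CPM over 1661 nt). *Ndufs7*, which holds the last cluster before ubiquinone, was the lowest at 5.05 log2 CPM per kb (25.0 CPM over 758 nt). The distance from highest to lowest core subunit was thus smaller per kb than in CPM.

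The 7 core subunits encoded by mitochondrial DNA were looked for but had no row under their symbols, so they were not analysed here.

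The 30 accessory subunits covered a wider range, from 3.69 to 7.76 log2 CPM per kb, which is 16.8-fold in CPM per kb. Their median was 5.83 log2 CPM per kb, the core median minus theirs was -0.29, and 21 of the 30 were above the core median. Before division by length the order of the class medians was the opposite, 5.57 log2 CPM for accessory and 5.80 for core subunits. The median transcript length was 681.5 nt for accessory and 1353.5 nt for core subunits, so the order of these classes depended on the scale.

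Of the 5 highest accessory subunits per kb, *Ndufb8* and *Ndufb9* belong to the distal membrane arm and the other 3 to no common module. *Ndufa4* led all members at 7.76 log2 CPM per kb (132 CPM over 610 nt). It was first described as part of complex I and is now also counted with complex IV, cytochrome c oxidase. *Ndufb8*, a subunit of the far end of the membrane arm, was next at 7.43 log2 CPM per kb (117 CPM over 680 nt). *Ndufa12*, which sits at the matrix arm where NADH is oxidised, was at 7.13 log2 CPM per kb (79.4 CPM over 566 nt). *Ndufb9*, of the distal membrane arm, reached the same rounded level from 98.3 CPM over 704 nt. *Ndufa1*, a small X-linked subunit of the proximal membrane arm, was at 6.92 log2 CPM per kb (50.6 CPM over 419 nt).

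The 5 lowest accessory subunits were from the distal membrane arm (*Ndufab1* and *Ndufb2*), the NADH-oxidising N module (*Ndufv3* and *Ndufs4*) and the proximal membrane arm (*Ndufs5*). *Ndufab1*, the mitochondrial acyl carrier protein, was the lowest at 3.69 log2 CPM per kb although its 44.8 CPM were near the members' median. The kept row was an assembled transcript of unknown length. It took the length of the gene's mRNA, 3479 nt, of which 2944 nt were 3′ untranslated. The mRNA row itself, at 36.4 CPM, was at 3.39 log2 CPM per kb. *Ndufv3*, of the NADH-oxidising module, was at 4.31 log2 CPM per kb (31.3 CPM over 1582 nt). *Ndufs4*, whose human counterpart is a known gene of Leigh syndrome, was at 4.62 log2 CPM per kb (41.8 CPM over 1698 nt). *Ndufs5* was at 4.83 log2 CPM per kb (14.9 CPM over 525 nt) and *Ndufb2* at 5.02 log2 CPM per kb (14.7 CPM over 455 nt). The remaining 20 accessory subunits lay between 5.14 for *Ndufb5* and 6.88 log2 CPM per kb for *Ndufb10*.

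Long transcripts tended to have lower levels per kb. Over the 40 members Spearman's rho between transcript length and log2 CPM per kb was -0.49, and between length and log2 CPM it was 0.20. Length enters the first of these measures itself, and genes are not independent replicates, so both are descriptions.

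The 4 assembly factors were the lowest class. Their median was 2.64 log2 CPM per kb, 2.90 below the core and 3.18 below the accessory subunits. *Ndufaf2*, a paralogue of *Ndufa12* that acts late in assembly, was at 3.95 log2 CPM per kb (10.5 CPM over 678 nt). *Ndufaf1*, which works on an intermediate of the membrane arm, was at 2.88 log2 CPM per kb (10.7 CPM over 1451 nt). *Ndufaf4* and *Ndufaf3* act together early in assembly. *Ndufaf4* had the highest CPM of the 4, 19.2 CPM, but over 3632 nt, which gave 2.41 log2 CPM per kb. *Ndufaf3* was the lowest of all members on both scales, at 1.81 log2 CPM per kb (5.20 CPM over 1487 nt). Of the 36 subunits, 35 were above all 4 assembly factors per kb, and the exception was *Ndufab1*, which was below *Ndufaf2*. From *Ndufaf3* to *Ndufa4* the members covered 62.0-fold in CPM per kb.

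Other assembly factors were at similar levels. All 14 genes of a separate list were found, with a median of 2.78 log2 CPM per kb and a range from 0.60 for *Nubpl*, a carrier of iron-sulphur clusters, to 5.02 for *Lyrm2*. *Ndufaf5*, *Ndufaf6* and *Ndufaf7* were at 2.14, 1.93 and 2.89 log2 CPM per kb. *Acad9* and *Ecsit*, which act with *Ndufaf1*, were at 2.70 and 3.27 log2 CPM per kb. *Ndufa4l2*, the paralogue of *Ndufa4*, was at 1.99 log2 CPM per kb, far from the 7.76 of *Ndufa4*.

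By structural module the subunits overlapped widely. The 10 genes of the NADH-oxidising N module had a median of 5.51 log2 CPM per kb and ran from *Ndufv3* to *Ndufa12*. The 4 genes of the ubiquinone-reducing Q module had a median of 5.62 and the narrowest range, from 5.05 to 5.72 log2 CPM per kb. The 8 genes of the proximal membrane arm had a median of 5.80 and the 11 of the distal membrane arm a median of 6.19 log2 CPM per kb. The distal arm held both *Ndufb8* at 7.43 and *Ndufab1* at 3.69, so its own range was wider than the distance between any of these medians. *Ndufa4*, *Ndufa9* and *Ndufa11*, placed in no module, were at 7.76, 5.79 and 5.68 log2 CPM per kb.

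Transcripts of the other respiratory complexes had higher medians per kb than the complex I subunits. The medians were 6.54 log2 CPM per kb over 4 genes of complex II, 6.57 over 9 of complex III, 7.68 over 10 of complex IV and 7.05 over 15 of complex V (ATP synthase). *Ndufa4*, at 7.76, was near the complex IV median. The 76 genes of the mitochondrial ribosome had a median of 3.20 log2 CPM per kb, between the complex I subunits and their assembly factors.

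**Figure D2:**
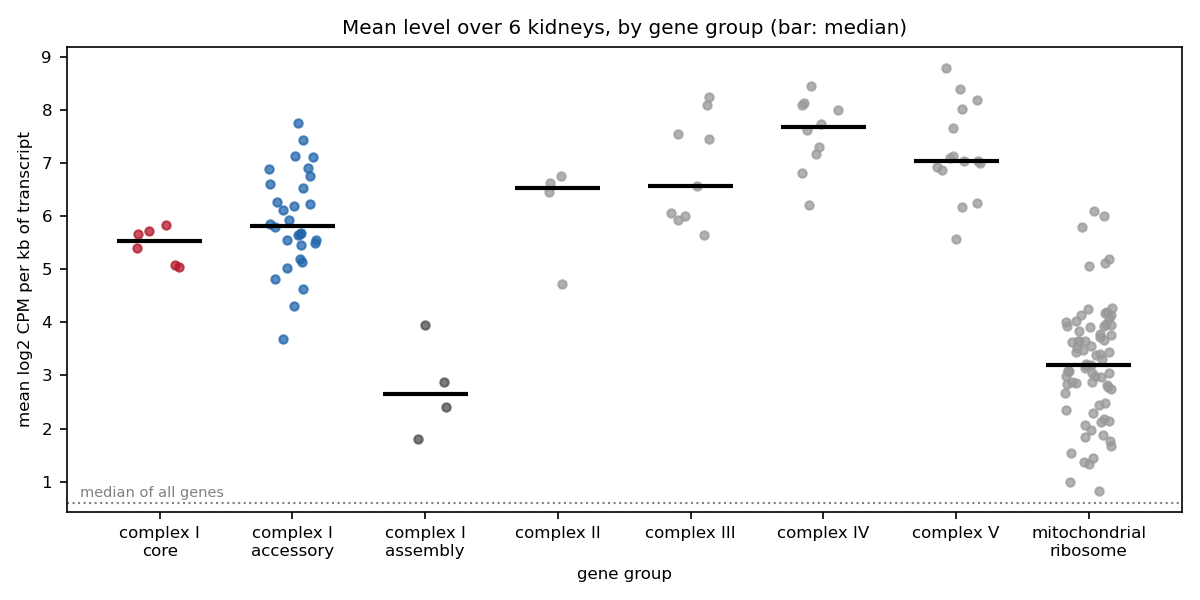
Mean log2 CPM per kb over the 6 kidneys for each gene of complex I, by class, of complexes II to V and of the mitochondrial ribosome; each point is a gene, the black bar the median of its group and the dotted line the median of all genes. The complex I core (median 5.54) and accessory subunits (5.83) lay below the medians of complexes II to V (6.54 to 7.68) and the complex I assembly factors (2.64) below that of the mitochondrial ribosome (3.20).

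Of the 40 members, 21 had several transcript rows and 19 had a single row, 72 rows in all. The kept row was a RefSeq mRNA for 30 members, a transcript that the authors had assembled from the reads for 9 and a RefSeq non-coding RNA for *Ndufs6*. For the 21 members with several rows the median distance between the highest and the lowest row was 0.067 in log2 CPM, and 10 members had a distance above 0.1. *Ndufb8* alone had rows more than 1 log2 CPM apart, with its mRNA at 6.87 and an assembled transcript at 5.75. In *Ndufs3*, *Ndufv3*, *Ndufa6* and *Ndufab1* the distances were 0.59, 0.49, 0.42 and 0.37.

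*Ndufv3* was represented by mRNAs of unequal length. The long form, of 1582 nt, was at 4.97 log2 CPM and the short form, of 493 nt, at 4.48 log2 CPM. Per kb this order was turned, 4.31 for the long and 5.50 log2 CPM for the short form. The forms overlap, and how reads in the overlap had been assigned is not given in the sources used here.

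Some complex I transcripts share stretches with copies elsewhere in the genome. This bears on their levels because the authors discarded alignments of low mapping quality, so a 51-base read that matches a gene and its copy equally well could be lost. Every 51-base window of each member's transcript was compared with the GENCODE transcripts of all other genes (GRCm38). In 27 members no window matched a transcript at another locus. In the other 13 at least 1 window did, and in 4 of these fewer than 80% of the windows were free of a match.

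The coding stretches below are shown because in them 3 of these members differ by a single base from the copy that shares most windows. Stretches with exactly that difference near the middle were searched for, so they do not measure how far gene and copy differ elsewhere. For *Ndufb4* the search gave no such stretch. Each stretch shown is 30 bases of coding sequence from the GENCODE transcripts, 5′ to 3′, and the capital letter is the single base that differs.
Ndufa12, coding bases 129 to 158, chromosome 10: gggagaagacaaatatggAaataaatacta
Gm15920, copy on chromosome 5: gggagaagacaaatatggGaataaatacta
Ndufs5, coding bases 63 to 92, chromosome 4: aagcgcagaacagccctaTaagaacgccgc
BC002163, copy on chromosome 16: aagcgcagaacagccctaCaagaacgccgc
Ndufs3, coding bases 14 to 43, chromosome 2: cagccagggtctgGtgtcgtgggctcttgg
Gm12251, copy on chromosome 11: cagccagggtctgTtgtcgtgggctcttgg

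*Ndufa12* had the fewest windows of its own, 46.5%, since 276 of its 516 windows matched *Gm15920*. Even so it was among the 4 highest members per kb. *Ndufs5* had 59.2% of its windows free of a match and shared 194 of 475 with *BC002163*, and it was among the lowest subunits. *Ndufb4* had 63.1%, with 340 of 921 windows in *Ndufb4c*, and *Ndufs3* 64.8%, with 349 of 996 in *Gm12251*. Over all 40 members Spearman's rho between the share of unmatched windows and log2 CPM per kb was -0.15. The part of shared sequence in any of these levels was not tested.

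**Figure D3:**
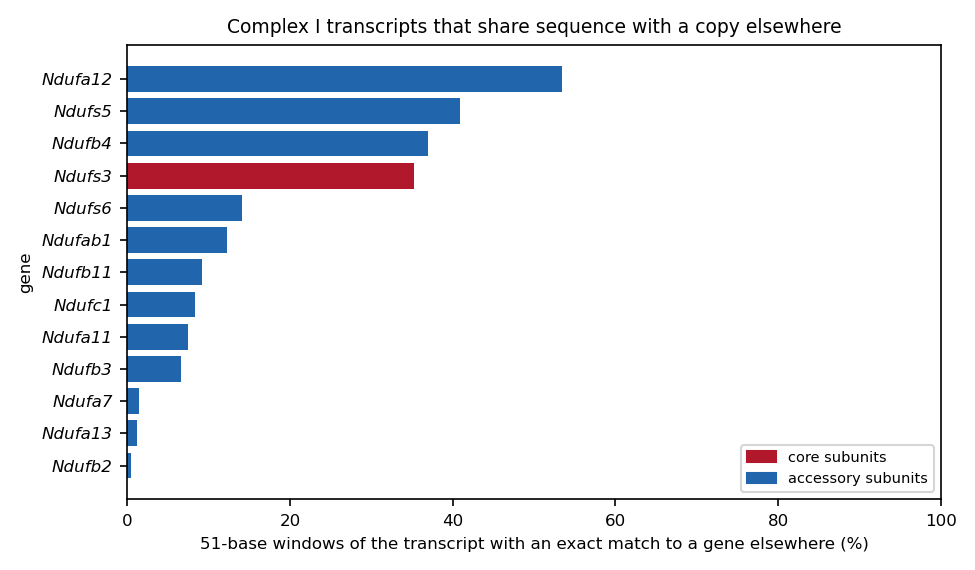
Share of the 51-base windows of each transcript that match a gene at another locus exactly, for the 13 complex I genes with any such window. *Ndufa12*, *Ndufs5*, *Ndufb4* and *Ndufs3* stand apart with more than 20% of windows shared, and none of the 4 assembly factors had a shared window.

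*Ndufs5* had a second row whose RefSeq identifier belongs to its copy *BC002163*, with a level equal to that of the *Ndufs5* mRNA, 3.90 log2 CPM. The copy's own row stood at 1.14 CPM, against 14.9 CPM for *Ndufs5*. Overlap at the same locus was also common. In 13 members some windows fell in a gene that overlaps them, on the opposite strand for *Ndufb6* (34.0% of windows, with *Smim27*) and *Ndufa13* (27.1%, with *Tssk6*), and on the same strand for *Ndufb2* (23.5%, with *Gm42420*) and *Ndufb9* (23.2%, with *Gm49356*). The libraries were strand-specific, but whether counting used the strand is not given in the sources used here, so reads of such pairs may not be separable. *Tssk6* itself was at 0.119 CPM.

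The deleted cluster encodes miR-17-5p and miR-20a-5p, which share a seed (bases 2 to 8, in capitals) and are shown because that seed defines the messages they can pair with. The mature sequences are those of RefSeq (GRCm38.p6), both on the plus strand of chromosome 14.
miR-17-5p, chr14:115043684-115043706: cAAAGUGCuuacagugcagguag
miR-20a-5p, chr14:115044183-115044205: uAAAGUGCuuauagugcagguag

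Complex I messages offered little 3′ untranslated sequence in which this seed could pair. Their median 3′ untranslated region had 124.5 nt, against 785 nt over 18923 genes. The letters that pair with the seed, GCACTTT, were present in 1 of 40 members (2.5%) and in 2086 of the 18923 genes (11.0%). Per kb of 3′ untranslated sequence this was 0.072 matches in the members and 0.0995 in all genes. The member was *Ndufa10*, a membrane arm subunit related to nucleoside kinases, at 6.21 log2 CPM, with the match (capitals) at positions 430 to 436 of 829.
Ndufa10, match at chr1:92439403-92439409, minus strand: cacccacccctGCACTTTgggtctctcaca
A match of letters is a description and was not tested as a target site. Seeds of the cluster's other microRNAs were not searched.

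RefSeq promoter windows, from 250 bases before to 50 after the start (GRCm38.p6), were given for 37 of the 40 members. They were searched on both strands for letters of factors known to act on nuclear genes of mitochondria. NRF1 is an activator of respiratory chain genes, and its letters GCGCATGCG were found in 3 members (8.11%), against 1.95% of 27025 genes with a window and 4.06% of those at 1 CPM or more. The members were *Ndufa8*, *Ndufa11* and *Ndufaf4*, a subunit with twin CX9C motifs, a membrane subunit and an assembly factor. The ETS letters CCGGAAGT were in *Ndufs3* only (2.70%, against 4.31% of all genes and 8.69% of those at 1 CPM or more). Stretches of 30 bases around these matches are printed on the strand of the gene, with the match in capitals, because these factors are the textbook link between such promoters and mitochondrial content.
Ndufa8, NRF1 letters, chr2:36049328-36049357, minus strand: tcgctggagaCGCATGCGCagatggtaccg
Ndufa11, NRF1 letters, chr17:56717692-56717721, plus strand: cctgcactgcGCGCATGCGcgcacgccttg
Ndufaf4, NRF1 letters, chr4:24897960-24897989, plus strand: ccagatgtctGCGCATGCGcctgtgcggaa
Ndufs3, ETS letters, chr2:90904703-90904732, minus strand: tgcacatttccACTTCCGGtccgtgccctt

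The half-site AAGGTCA of the oestrogen-related receptors was in 3 members (8.11%, against 5.38% of all genes and 4.01% of those at 1 CPM or more), namely *Ndufb2*, *Ndufb4* and *Ndufs5*. TATAAA was in 4 members, namely *Ndufa3*, *Ndufa7*, *Ndufb7* and *Ndufs7*. Their share of 10.8% was below the 15.7% of all genes and above the 9.09% of genes at 1 CPM or more. With 37 windows each count rests on 1 to 4 genes. The median level of the members with NRF1 letters was 5.65 and of those without 5.70 log2 CPM per kb.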

How the data were processed

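Reads of 51 bases from TruSeq Stranded total RNA libraries had been mapped by the authors to mm10 with TopHat2 2.0.12, and alignments of mapping quality below 10 had been discarded. The submitters' notes also name Cufflinks, featureCounts and edgeR 3.2.4. The deposited table had 54721 transcript rows (27012 RefSeq mRNAs, 3549 non-coding RNAs and 24160 assembled transcripts). It gives the authors' mean log2 CPM over all 6 libraries, and columns of their comparison of the genotypes (fold change, likelihood ratio, p-value and false discovery rate), which were not used. CPM summed to 1007270 over all rows and to 370295 with 1 row per symbol, and 2124 symbols had rows equal to 6 decimals, so a read may have been counted in several rows.

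The highest row of each symbol was kept. Lengths came from the GENCODE vM21 transcript matched to the RefSeq mRNA. An assembled or non-coding row took the length of the gene's highest mRNA row. Medians, ranges and percentiles were computed in Python 3.11.15 (pandas 2.3.3). Window and motif matches were exact, and the motif search was tested on simulated data. Values were printed for the core subunits, the assembly factors, the 5 highest and the 5 lowest accessory subunits per kb, and members with rows more than 1 log2 CPM apart. Other genes were named after their values were seen. The genes and lists were chosen with earlier results of these data known. No per-kidney value, SD or test could be had. Some listed genes are not reported here.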

Additional observations from a re-analysis of the deposited data

How the results depend on the processing

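No paired analysis was possible because the table holds 1 mean over all 6 kidneys, and for the same reason no kidney could be left out. The members' median of 5.57 log2 CPM was 5.54 with RefSeq mRNA rows only and 5.54 with the median over all rows of a gene, 5.48 without *Ndufa4* and 5.46 over members with at least 80% unshared windows. Core minus accessory, -0.29 log2 CPM per kb, was reversed to 0.23 without division by length, as these classes differ in length. It was -0.20 with the longest transcript of each gene, -0.23 with mRNA rows and -0.37 over unshared windows. Core minus assembly factors, 2.90, was 2.39 without division by length, 2.89 with the longest transcript and 2.91 over unshared windows. Accessory minus assembly factors, 3.18, was 2.16, 3.09 and 3.28 in the same order, 3.13 with mRNA rows and 3.05 with the other assembly factors added. The percentile of the median member, 92.3, was 86.3 among genes of at least 1 CPM and 91.4 among symbols with an mRNA row. With promoter windows of 100 bases before the start, the ERR letters were in 1 member in place of 3 (2.70%, against 2.47% of all genes), the TATA letters in 2 in place of 4 (5.41%, against 8.08%) and the NRF1 letters in 2 in place of 3 (5.41%, against 1.44%). The comparison of windows with a whole genome was not run, and transcripts were used in its place. The uses of unshared windows, the other assembly factors, the longest transcript and mRNA rows for accessory minus assembly factors, and the motif shares among genes of 1 CPM or more were chosen after seeing the data. Depth per library is unknown, and the log2 CPM of low genes depends on the value added before the logarithm.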

Other observations

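The 4 highest rows without a gene name, all assembled transcripts, held 66338 CPM, 6.59% of the table's sum. CPM of the complex I genes are relative to a total that includes them. Of all symbols with several rows, 21.2% had rows of equal level, and of the complex I genes *Ndufa8*, *Ndufs5* and *Ndufs8* did.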
